A study of Mus musculus with 3 samples.

Results

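Open chromatin was described at 10 genes of the bone-forming programme in mouse mesenchymal stem cells: the transcription factor genes Runx1, Runx2 and Runx3, their partner gene Cbfb, the osteoblast regulators Sp7 and Dlx5, and the mineralisation and matrix genes Alpl, Spp1, Ibsp and Bglap. Members were the ATAC-seq peak summits that lay inside one of these genes, or whose nearest protein-coding gene end, within 50 kb, belonged to one of them. They numbered 49 of 51722 summits at day 0, 83 of 67404 in the day 7 immobilized library and 42 of 47912 in the day 7 non-immobilized library.

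The cells came from a study of heterotopic ossification, the growth of bone in soft tissue after injury. There was 1 pre-injury library (day 0) and 2 libraries from 7 days after injury, whose cells carry the labels immobilized and non-immobilized. ATAC-seq reads out open chromatin as the sites where a transposase can insert sequencing adapters, and all 3 libraries followed the Omni-ATAC protocol. The sources used here do not give strain, age, genotype, the kind of injury or the number of pooled animals. Each group has 1 library, so differences could not be checked against replicates and no test was run. Intervals on shares are 95% Clopper-Pearson (exact) intervals and account for counting error alone.

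Runx proteins bind DNA through the Runt domain as a heterodimer with Cbfb, which raises their affinity for DNA. Runx2 is required for osteoblast formation, Runx1 is best known from blood development, and Runx3 from T cells, cartilage and sensory neurons. Sp7 (osterix) acts downstream of Runx2, Dlx5 is a homeobox factor of early osteoblasts, Alpl encodes tissue-nonspecific alkaline phosphatase, and Spp1 (osteopontin), Ibsp (bone sialoprotein) and Bglap (osteocalcin) encode proteins of mineralised matrix.

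The set of RefSeq starts used here (GRCm38.p6, the assembly of mm10) lists 12 starts for 8 of the 10 genes. It has 2 each for Runx1, Runx3, Alpl and Spp1, and no entry for Sp7 and Dlx5. Summits stood at the listed start of Cbfb, at the inner start of Runx1 and at the outer start of Alpl in all 3 libraries. Stretches upstream of these last starts are printed 5′ to 3′ along the gene, from base -100 to base -1, with the bases between the outermost of the 3 summits in capitals. The Runx1 stretch is chr16:92697330-92697429 and the Alpl stretch chr4:137796385-137796484, both on the minus strand.
Runx1 inner start: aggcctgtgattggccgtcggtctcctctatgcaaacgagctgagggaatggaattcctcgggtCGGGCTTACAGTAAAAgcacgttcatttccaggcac
Alpl outer start: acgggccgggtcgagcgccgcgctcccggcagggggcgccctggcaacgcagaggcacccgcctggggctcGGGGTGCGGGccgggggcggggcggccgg

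Runx proteins recognise a short core, searched here as TGTGGT and TGCGGT on both strands of the 250 bases upstream of each start. The letters were found in 4 of the 12 listed promoters of these genes and in 3524 of all 20085 listed promoters (17.5%), so such matches are frequent. All 5 matches read ACCACA along the gene, the reverse complement of TGTGGT, and they are in capitals below with 50 bases on each side. The stretches are chr17:44814652-44814757 (minus strand) for Runx2, chr4:135120461-135120574 (plus strand) for Runx3, chr5:104434933-104435038 (plus strand) for Spp1 and chr3:88384543-88384648 (minus strand) for Bglap.
Runx2 start, match at -80: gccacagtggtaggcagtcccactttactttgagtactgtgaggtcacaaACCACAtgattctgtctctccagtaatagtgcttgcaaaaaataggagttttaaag
Runx3 outer start, matches at -134 and -126: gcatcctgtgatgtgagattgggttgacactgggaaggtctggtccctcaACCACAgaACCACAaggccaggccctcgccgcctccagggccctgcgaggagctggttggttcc
Spp1 outer start, match at -128: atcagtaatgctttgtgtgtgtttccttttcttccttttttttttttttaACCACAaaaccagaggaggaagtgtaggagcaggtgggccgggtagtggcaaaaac
Bglap start, match at -132: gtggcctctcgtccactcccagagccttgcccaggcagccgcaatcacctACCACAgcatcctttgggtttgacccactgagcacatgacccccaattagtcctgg

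Of these 4 promoters, Runx3's alone held a summit in any library. It was a weak one of the immobilized library, 133 bases upstream of the start and so within the first of the paired matches, at rank 92.8% of that list, where 0% is the best-scoring summit. Ranks are positions within a library's own deposited list and were not compared between lists as a change in signal. A match of letters is a description and not a binding site.

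The libraries held 143818952 to 176119937 read pairs, and the immobilized library, with the fewest pairs, had the longest summit list. To compare libraries at equal length, only the 47912 summits with the highest scores were kept from each, which left out 28.9% of the immobilized list, 7.37% of the day 0 list and none of the non-immobilized list. Windows reaching 250 bp to either side of a summit were joined where they overlapped, which gave 67237 regions, 70 of them at the 10 genes. A region counted as called where a library had a kept summit in it, and absence from a list does not show closed chromatin. The 10 mesenchymal marker genes all held regions, 51 called at day 0, 41 in the immobilized and 43 in the non-immobilized library. Keratinocyte markers had 11, 45 and 12 regions called in the same order, endothelial markers 36, 45 and 83, skeletal muscle markers 34, 25 and 24, and leukocyte markers 17, 22 and 20. Of 12 leukocyte markers, Itgam, Cd3e, Cd79a and Lyz2 held no region in any library. In bulk libraries such as these, fewer cells of a type and less accessibility per cell cannot be told apart.

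Runx1 and Runx2 carried most of the open regions, 21 and 20 of the 70. Among the 15534 protein-coding genes with a region, 211 (1.36%) had more regions than Runx1 and 233 more than Runx2, against a median of 2. Both are long genes, of 225 and 319 kb, with 8.90 and 5.96 regions per 100 kb of gene, against 3.75 over all protein-coding genes. Runx3 and Alpl had 8 regions each, Sp7 4, Cbfb and Dlx5 3 each, Spp1 2, Bglap 1 and Ibsp none.

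**Figure D1:**
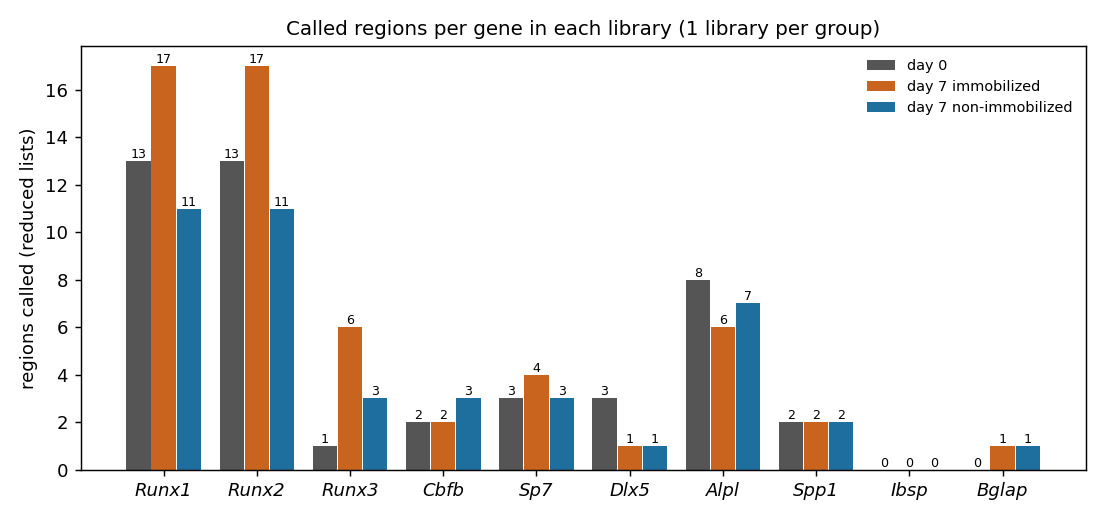
Number of regions called (vertical axis, lists reduced to equal length) for each of the 10 genes in the 3 libraries, 1 bar per library and gene. Runx1 and Runx2 show the same heights, 13 at day 0, 17 in the immobilized and 11 in the non-immobilized library. Of all 67237 regions, 46537, 47111 and 46069 were called in that order.

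Few of these regions lay at gene ends. Only 3 of the 70 (4.29%) had their best-ranked summit within 1 kb of an end of the member gene, at Cbfb, Dlx5 and Alpl. Measured to the nearest end of any protein-coding gene, which adds the Runx2 region at Supt3, 4 of the 70 (5.71%) did, against 13908 of all 67237 regions (20.7%). The median distance to that nearest end was 27.5 kb for the 70 regions and 13.7 kb for all regions. The share within 1 kb of a member end was 10.3% without Runx1 and Runx2 and 12% among the 23956 best summits of each list. The inner Runx1 start, inside the gene, is not counted among these ends.

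Runx1 was open at its inner start in every library. The region there, chr16:92697100-92697615, held a summit 21 bases upstream of the start at day 0, at rank 14.8%. The immobilized library had its summit at the same base, at rank 10.7%, and the non-immobilized library 36 bases upstream, at 10.9%. This was the best-ranked Runx1 region in all 3 lists. Another shared pair of regions flanked it, with best summits 513 bases downstream and 1485 bases upstream of the start. At the outer start of Runx1, by contrast, no library had a summit in the promoter window. The nearest was an immobilized summit 56 bases downstream, at rank 77.8%, which lay below the score kept. Across all listed promoters, 41.9% held a summit at day 0, 42.9% in the immobilized and 40.8% in the non-immobilized library.

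Runx1 regions were called 13 times at day 0, 17 times in the immobilized and 11 times in the non-immobilized library. Of all 67237 regions, 46537, 47111 and 46069 were called in the same order. Of the 21 Runx1 regions, 9 were called in all 3 libraries, 6 in the immobilized library only and 4 at day 0 only. A further 2 were called in both day 7 libraries and none in the non-immobilized library only. Of all regions, 44.5% were called in all 3 libraries, 11.9% in the immobilized library only and 14.2% at day 0 only. Another 8.3% were called in both day 7 libraries and not at day 0, and 10.6% in the non-immobilized library only. A shared Runx1 region lay 76.4 kb downstream of the inner start, chr16:92620656-92621191. It had ranks 24.3%, 13.4% and 22.2% in the order day 0, immobilized and non-immobilized. All 6 immobilized-only regions ranked in the weaker part of that list, between 51.9% and 68.1%. Among the 23956 best summits of each list, Runx1 had 5 regions, and all 5 were called in all 3 libraries. The difference in Runx1 counts between libraries therefore lay among lower-scoring summits. Beyond the limit of 50 kb, Runx1 was also the gene with the nearest end to a summit 180.7 kb away that ranked 7.74% at day 0, 8.12% in the immobilized and 7.50% in the non-immobilized list. That summit is not counted here, and it was picked out after its values were seen.

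The set of starts used here has 1 for Runx2, and no summit lay near it. Starts that are not listed were not examined. The closest summit was 37.5 kb downstream in each library, although the promoter holds the letters printed above. That summit belonged to the best-ranked Runx2 region, chr17:44776849-44777382, at ranks 7.41% at day 0, 8.28% in the immobilized and 10.7% in the non-immobilized library. The region lies inside Runx2 but at an end of Supt3, a gene for a subunit of the SAGA coactivator complex that overlaps Runx2. Its summits were 19, 14 and 13 bp from the Supt3 end in the order day 0, immobilized and non-immobilized. Openness there cannot be assigned to either gene from these files. For 8 of the 20 Runx2 regions the nearest protein-coding gene end was that of Supt3, 3 of them within 50 kb.

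Within Runx2 the next shared region lay 78.5 kb downstream of the start, chr17:44735886-44736715, at ranks 32.5%, 29.2% and 29.1% in the order day 0, immobilized and non-immobilized. A region near the far end of the gene, chr17:44500156-44500924, ranked 19.7% in the immobilized and 31.0% in the non-immobilized list but 91.1% at day 0, where its score was close to the lowest kept. Region chr17:44598041-44598687 instead had its best rank at day 0, with 30.5% there, 51.7% in the immobilized and 74.3% in the non-immobilized list. These 2 regions were chosen after their values were seen, and their ranks come from lists of different lengths.

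Like Runx1, Runx2 had 13 regions called at day 0, 17 in the immobilized and 11 in the non-immobilized library. Of its 20 regions, 7 were shared by all 3 libraries, 5 were called in the immobilized library only and 1 at day 0 only. Another 3 were called at day 0 and in the immobilized library, 2 at day 0 and in the non-immobilized library, and 2 in both day 7 libraries. Of all regions, 44.5% were called in all 3 libraries, 11.9% in the immobilized library only and 14.2% at day 0 only. The best-ranked immobilized-only Runx2 region, chr17:44547849-44548349, stood at rank 31.1% and lay 266.5 kb downstream of the listed start. Among the 23956 best summits of each list, Runx2 had 4, 6 and 4 regions called in the order day 0, immobilized and non-immobilized.

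**Figure D2:**
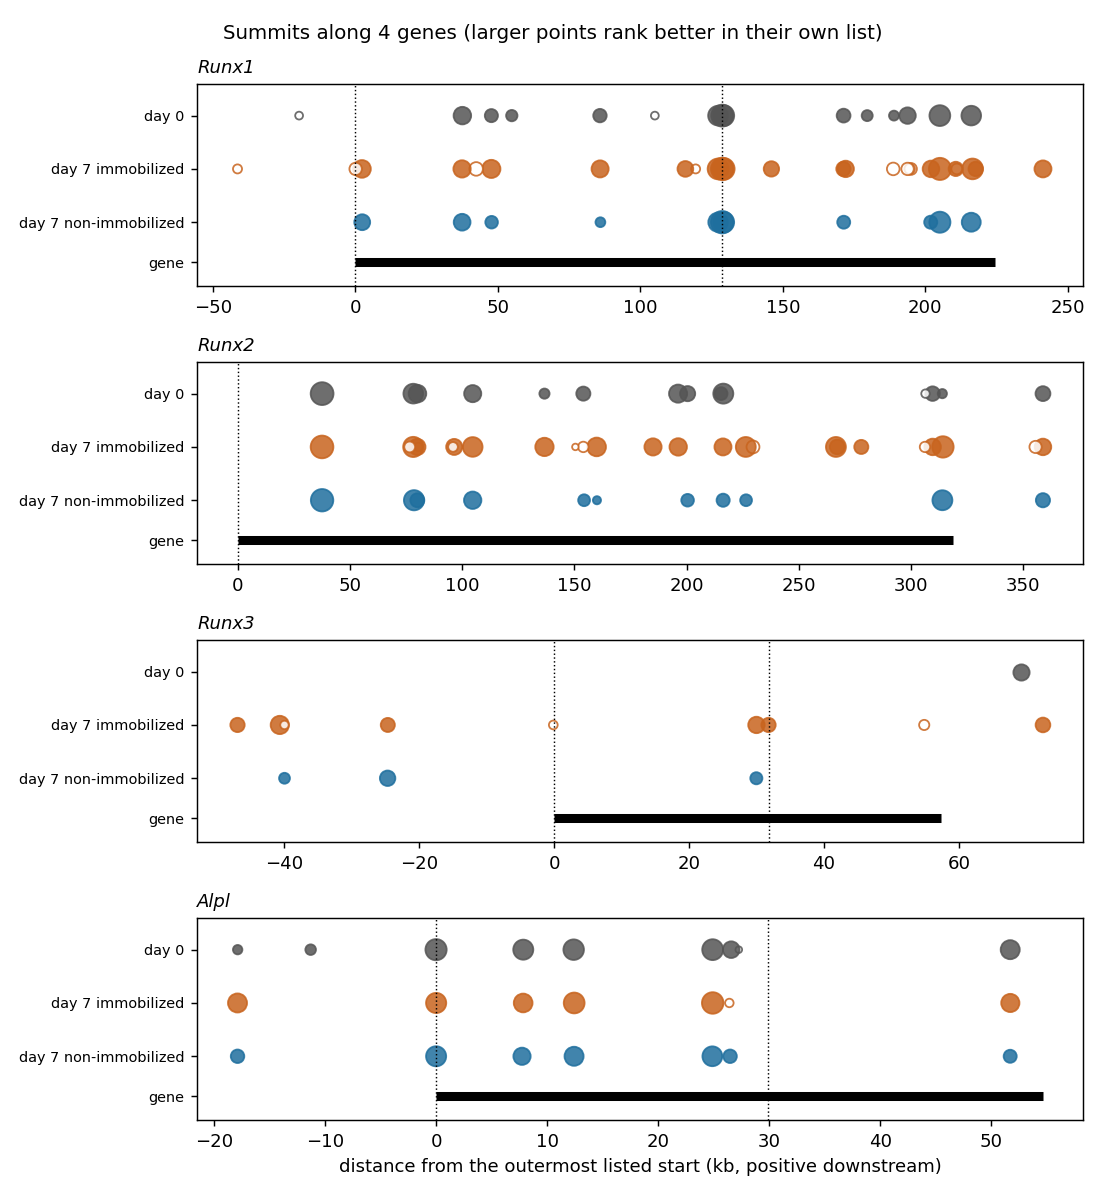
Peak summits along Runx1, Runx2, Runx3 and Alpl by distance from the outermost listed start (horizontal axis, kb), with 1 row per library; point area grows with a better within-list rank, open points were left out when lists were reduced, the black bar is the gene and dotted lines are listed starts. Runx1 and Alpl carry summits on 1 of their 2 listed starts in every library. At the other Runx1 start the immobilized row has an open point, 56 bases downstream. The summit closest to the 1 listed start of Runx2 lies 37.5 kb inside the gene.

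Runx2's profile was compared with every protein-coding gene that had at least as many regions, 264 in all. The share of a gene's regions called in each of the 3 libraries was taken, and likeness was measured as the Euclidean distance between these shares. Runx1 was the nearest, at a distance of 0.057. Trim2, Hivep2, Mbnl2 and Sdk2 followed at 0.083 to 0.127. All points come from the same 3 libraries, so this is a description.

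Runx3 had 8 regions, none of them called in all 3 libraries (interval 0 to 36.9%), against 44.5% of all regions. At day 0 only 1 was called, 11.9 kb beyond the gene, at rank 56.8%. The immobilized library had 6 and the non-immobilized library 3. Of the 8 regions, 4 were called in the immobilized library only, against 11.9% of all regions. Another 2 were called in both day 7 libraries and not at day 0, against 8.3%. Regions called in the non-immobilized library only and at day 0 only numbered 1 each, against 10.6% and 14.2%. The best-ranked Runx3 region, chr4:135079723-135080223, was immobilized-only, at rank 43.1%, and lay 40.7 kb upstream of the outer start. Its inner start carried an immobilized summit 131 bases upstream, at rank 68.0%, and no summit of the other libraries in that window. No Runx3 summit ranked better than 43.1% of its list, and none was among the 23956 best summits of any list. The distance limit of 50 kb bears on this gene. The outermost Runx3 summit inside the limit, 46.9 kb from the gene, was an immobilized one at rank 68.1%. Just beyond it, 53.3 kb from the gene, all 3 libraries had a summit, at ranks 57.8% at day 0, 56.1% in the immobilized and 71.9% in the non-immobilized list.

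Cbfb, the common partner of the 3 Runx proteins, was open at its start in all 3 libraries and held the best rank of any member in the day 0, immobilized and non-immobilized lists. The region, chr8:105170399-105170964, ranked 6.66%, 7.70% and 7.05%. Its summits were 40 and 32 bases downstream of the start at day 0 and in the immobilized library, and 25 bases upstream in the non-immobilized library. A region 16.1 kb inside the gene was also shared, at ranks 72.7%, 38.5% and 73.2%. The remaining Cbfb region was called in the non-immobilized library only, at rank 94.7%.

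Sp7 had no region inside the gene in the reduced lists, and its 4 regions lay between 1.28 and 14.7 kb outside an end. The best-ranked, chr15:102377089-102377634, was 10.3 kb from the gene and was called in all 3 libraries at ranks 15.6%, 12.8% and 23.1%. A neighbouring region 10.9 kb away was called at ranks 29.8% and 38.7% in the immobilized and non-immobilized libraries and not at day 0. Region chr15:102381485-102382001 was called at day 0 at rank 39.2% and in the immobilized library at 32.7%, and not in the non-immobilized library. Sp7 thus had 3, 4 and 3 regions called in the order day 0, immobilized and non-immobilized.

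Dlx5 had 3 regions called at day 0 and 1 in each day 7 library. The shared region, chr6:6881405-6882311, covered a gene end and ranked 61.4%, 30.8% and 61.3% in the order day 0, immobilized and non-immobilized. The other two were called at day 0 only, 26040 and 27679 bp outside the gene, at ranks 65.4% and 62.1%. In the lists as deposited Dlx5 had 3 regions called at day 0, 3 in the immobilized and 1 in the non-immobilized library, so only the latter count stayed below day 0.

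Alpl regions were mostly shared. Of the 8, 6 were called in all 3 libraries (75%, interval 34.9 to 96.8), against 44.5% of all regions. There were 8 called at day 0, 6 in the immobilized and 7 in the non-immobilized library. The outer start, chr4:137796154-137796663, ranked 21.1%, 29.2% and 29.9% in the order day 0, immobilized and non-immobilized, with summits 29, 20 and 23 bases upstream. The best rank of any Alpl region, in the immobilized list, belonged to one inside the gene, chr4:137771237-137771769, 24.9 kb from the outer start, at 23.9%, 18.4% and 32.1%. The inner start of Alpl held no summit in its window in any library.

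Spp1 had 2 regions, both outside the gene and both called in every library. The one 27.4 kb upstream of the outer start, chr5:104407444-104407978, ranked 33.7%, 22.0% and 54.1% in the order day 0, immobilized and non-immobilized. The one 5.34 kb beyond the far end, chr5:104446126-104446638, ranked 40.9%, 30.1% and 36.2%. Neither Spp1 start had a summit in its window.

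Bglap and Ibsp, genes of mature osteoblasts, had the fewest summits. Bglap had 1 region, chr3:88381846-88382388, 1.40 kb from the gene, called at rank 50.6% in the immobilized and 64.6% in the non-immobilized library and not at day 0. Bglap lies in a cluster with the near-identical copies Bglap2 and Bglap3, so reads may be split among them and these calls are uncertain. Bglap2 had a summit at day 0, at rank 64.2%, and in the non-immobilized library, at rank 73.2%, and Bglap3 had none. Ibsp had no summit in any list. The nearest were 33991 bp away at day 0, 47153 bp in the immobilized and 20024 bp in the non-immobilized library, and each was nearer to Mepe or Dmp1, neighbouring matrix genes.

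**Figure D3:**
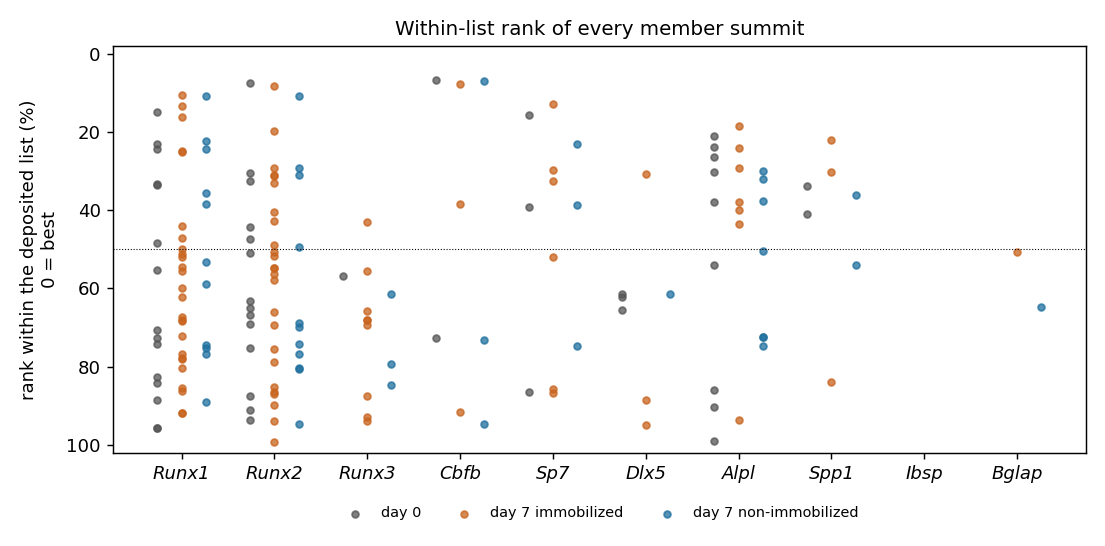
Within-list rank of every summit at the 10 genes in the deposited lists (vertical axis, percent of the list, 0 at the top is best), with 1 point per summit and the libraries side by side. Cbfb has the best-ranked summit in each library, no Runx3 summit ranks better than 43.1%, and Ibsp has no point.

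Median ranks of all summits at the 10 genes were 56.8% at day 0, 55.6% in the immobilized and 61.4% in the non-immobilized list, against 50% for a whole list by construction. In the order day 0, immobilized and non-immobilized, 2 of 49, 2 of 83 and 1 of 42 summits ranked in the best 10% of the list. These were summits of Cbfb and of the Runx2 region at the end of Supt3.

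Over the 10 genes, 29 of 70 regions (41.4%, interval 29.8 to 53.8) were called in all 3 libraries, near the 44.5% of all regions. Day 0 only regions made up 12.9% (9 regions) against 14.2% of all regions. Regions of both day 7 libraries that were not called at day 0 made up 11.4% (8 regions, interval 5.07 to 21.3) against 8.3%. Regions called in the immobilized library only made up 21.4% (15 regions, interval 12.5 to 32.9) against 11.9% of all regions. Non-immobilized-only regions made up 2.86% (2 regions, interval 0.348 to 9.94) against 10.6%.

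**Figure D4:**
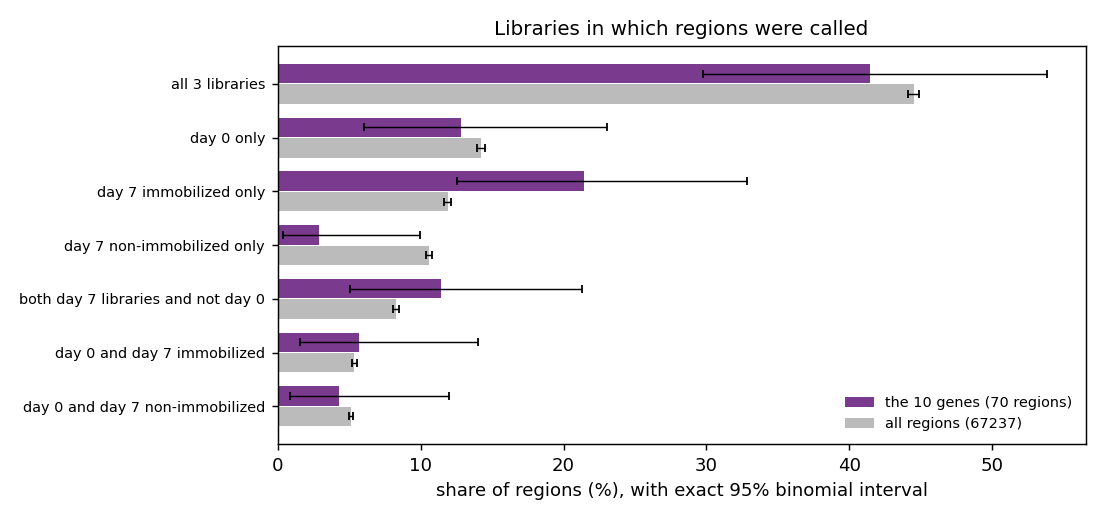
Share of regions (horizontal axis, percent) called in each combination of libraries, for the 70 regions of the 10 genes and for all 67237 regions, with exact 95% binomial intervals. The members' bar is longer for immobilized-only regions, 21.4% against 11.9%, and shorter for non-immobilized-only regions, 2.86% against 10.6%.

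All 15 immobilized-only regions belonged to Runx1 (6), Runx2 (5) and Runx3 (4), which together hold 49 of the 70 regions. The other 7 genes had no such region among their 21. Of those 21, 13 (61.9%, interval 38.4 to 81.9) were called in all 3 libraries, against 16 of 49 (32.7%, interval 19.9 to 47.5) for the Runx genes. These intervals treat regions as independent, although Runx1 and Runx2 hold 41 of the 49 and all calls come from the same 3 libraries. The split into Runx and other genes was not among the planned results, and the difference was not tested. All 15 immobilized-only regions were also absent from both other lists as deposited. The non-immobilized list was not reduced, so only the 7.37% left out of the day 0 list could have changed this. Of the 9 day 0 only regions 6 were absent from both other deposited lists, and of the 2 non-immobilized-only regions 1 was. The 15 immobilized-only regions ranked between 31.1% and 69.2% of the immobilized list, with 2 in its better 50%. In the lists as deposited, 27 of 31 immobilized-only regions belonged to the Runx genes, which held 64 of the 90 regions there. Among the 23956 best summits of each list 2 of 3 did, both at Runx2. The Runx genes held 13 of the 25 regions in that setting, so 3 regions are too few to show a concentration.

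Between the day 7 libraries, 61 regions of the 10 genes were called in either. Of these, 19 (31.1%) were called in the immobilized and not in the non-immobilized library, against 20.1% of all such regions, and 5 (8.20%) in the non-immobilized and not in the immobilized library, against 18.3%. Runx genes gave 18 of the 19 and 3 of the 5. The non-immobilized list was not reduced, so the same 19 regions were by construction absent from it as deposited. They made up 33.9% of the 56 regions called in the immobilized library, against 24.6% for all regions. Only 2 of the 42 regions called in the non-immobilized library (4.76%) were absent from the whole immobilized list, against 12.2%. With windows of 50 bp on each side the counts were 28 and 14, and without Runx1 and Runx2 they were 5 and 3.

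Against day 0, the immobilized library had 23 regions of its own and day 0 had 12, of 68 called in either (33.8% and 17.6%, against 22.6% and 21.6% of all regions). The non-immobilized library had 10 of its own and day 0 had 13, of 55 (18.2% and 23.6%, against 21.4% and 22.2%). Both comparisons share the day 0 library. Without Runx1 and Runx2 the non-immobilized library had 6 regions of its own and day 0 had 5, which turns the direction of that small difference.

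Marker regions of cell types differed between the day 7 libraries, and not all in 1 direction. Of all regions, 11604 were called in the immobilized and not in the non-immobilized library and 10562 the other way. Keratinocyte markers had 34 regions called in the immobilized and not in the non-immobilized library and 1 the other way, the direction of the Runx genes. All 10 keratinocyte markers had more regions called in the immobilized library, where each had between 1 and 8, and Krt5 and Krt14 had none in the other two libraries. Leukocyte markers, which matter for Runx1 and Runx3 as genes that blood cells use, had 5 and 3 such regions. Endothelial markers ran the opposite way, with 6 and 44. Skeletal muscle markers had 6 and 5, and mesenchymal markers 11 and 13. The part of other cells in the Runx counts was not tested.

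Other genes of the pathway are given for comparison, with no test of a difference from the Runx genes. Of 32 partners, corepressors and other bone regulators, all but the histone deacetylase gene Hdac3 held regions, 255 in all, with 106 (41.6%) called in all 3 libraries. Between the day 7 libraries, 48 were called in the non-immobilized and not in the immobilized library, 36 the other way and 134 in both. Of all regions the counts were 10562, 11604 and 35507, and the first 2 were 18.3% and 20.1% of those called in either. In the list, 11 genes had more in the non-immobilized and 7 in the immobilized library. Tle3, a Groucho-type corepressor, had 7 and 2, Trps1, a GATA-type repressor, 2 and 0, and Dlx3, a homeobox gene, 0 and 2. Against day 0 the leading gene was Wwox, a WW-domain oxidoreductase. It had 14 regions called at day 0 and not in the non-immobilized library and 3 the other way, and 13 and 4 against the immobilized library. Hdac7 had 3 regions in the non-immobilized and 4 in the immobilized library that were not called at day 0, and none the other way. Tle3 stood level with Hdac7 between the non-immobilized library and day 0, with 9 and 3. Kat6a, a histone acetyltransferase gene, had 3 immobilized regions not called at day 0 and none the other way.

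Of 32 other bone matrix and mineralisation genes, 30 could be matched on the autosomes. They held 164 regions, 71 (43.3%) called in all 3 libraries, and Ifitm5 had none. Between the day 7 libraries, 25 were called in the non-immobilized and not in the immobilized library, 19 the other way and 94 in both. Of all regions the counts were 10562, 11604 and 35507. Mepe, a phosphoglycoprotein gene of bone matrix that neighbours Ibsp, led with 4 and 0, followed by the collagen gene Col5a1 with 3 and 0, and by 4 genes of equal standing, Ank, a gene for a pyrophosphate transporter, Enpp1 and Pdpn with 0 and 2 each and Slc20a1 with 2 and 0. Mepe also had 6 non-immobilized regions not called at day 0 and none the other way. Dmp1, a matrix acidic phosphoprotein gene, and the collagen gene Col5a2 had more at day 0. Dmp1 had 4 day 0 regions not called in the non-immobilized library and 3 not called in the immobilized library, with none the other way. Col5a2 had 6 against 1 and 5 against 0 in these comparisons. Lox, a collagen crosslinking enzyme gene, Phospho1, a mineralisation phosphatase gene, and Serpinh1, a collagen chaperone gene, each had 3 immobilized regions not called at day 0 and none the other way.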

How the data were processed

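Peak summit lists from ATAC-seq of 3 mouse mesenchymal stem cell libraries, 1 per group, were analysed. Upstream, per the submitters' processing notes, MACS2 2.1.2, Bowtie2 2.3.4.1 and the build mm10 were used, beside edgeR 3.26.5, SAMtools 1.2, bedtools 2.28.0 and read-trimming and quality tools. Their settings, and any shift of reads for the transposase, are not stated in the sources used here. Peaks were called per library by the authors, as the deposited lists show. The deposited score of a summit was taken, from the file layout, as −log10 of a q or p value and was used only for ranks within a list. Per the file headers, the run statistics give reads as counts, duplication as a fraction (60.2%, 43.4% and 42.0% for day 0, immobilized and non-immobilized) and alignment as a percent (90.9%, 92.5% and 89.9%).

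Summits on the 19 autosomes were used. Genes were those of GRCm38.p6, with no strand or exons. Promoters spanned 250 bases before to 50 after each start in the set of RefSeq starts used. Positions count from 1. A region took the gene or genes of its best-ranked summit: those it lay inside, and the one with the nearest end within 50 kb. For each member the best-ranked region and each region of 1 library in the better 50% of its list were named, and from each pathway list up to 3 genes (and any tied with the last) per pair of libraries that differed most in their 1-library counts (the difference divided by the root of the sum). One gene that this rule named is not reported here. No test across groups was run. Genes and lists were chosen with earlier results of these data known. Region building and gene assignment were tested on simulated data. Alternatives were 6 settings, with 3 added after seeing the data. Motifs in regions were not searched, as no genome sequence was used here. Software was matplotlib 3.10.9, scipy 1.17.1, pandas 2.3.3 and numpy 2.4.6 under Python 3.11.15.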

Additional observations from a re-analysis of the deposited data

Results flagged for a closer look

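Runx1 had 13 regions called at day 0, 17 in the immobilized library and 11 in the non-immobilized library, so the differences from day 0 had opposite signs and lay 6 regions apart. Runx2 gave the same counts and the same difference of 6. With 1 library per group neither difference was tested. No other member had differences of opposite sign. Over all 67237 regions, 46537 were called at day 0, 47111 in the immobilized and 46069 in the non-immobilized library. Opposite signs are therefore not particular to Runx1 and Runx2. Among the 23956 best summits of each list, Runx1 had 5 regions called in every library, so its difference was absent there. Runx2 then had 4, 6 and 4 in the order day 0, immobilized and non-immobilized. For comparison, keratinocyte markers had 11, 45 and 12 regions called in the same order, and their part in the Runx counts was not tested.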

How the results depend on the processing

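Depth and list length limit these counts, since a missing summit can be a weak one. Among the 23956 best summits of each list, 13 member regions were called in all 3 libraries, 4 at day 0 only, 3 were immobilized-only, 0 non-immobilized-only and 3 in both day 7 libraries and not at day 0. Of regions in either day 7 library but not both, 0% were non-immobilized, against 20.8% in the reduced lists. Member summits numbered 19, 21 and 16 for day 0, immobilized and non-immobilized, with median ranks of 30.3%, 24.8% and 30.4%, as the setting keeps the best summits. For member summits kept when the immobilized list was reduced to 47912, the median rank was 43.9%, still as a percent of the deposited list. The last summit kept of that library stood at 71.1% of the deposited list, so this median is not to be read against that of a whole list. With lists as deposited, 31 regions were immobilized-only and 1 was non-immobilized-only, and the day 7 share was 4.88%. That setting favours the immobilized library, whose list holds 67404 summits against 47912. Shares over all regions are not given for the alternatives, so these member counts have no background beside them. Non-immobilized-only regions numbered 11 with windows of 50 bp on each side, 1 with 500 bp, 1 with a limit of 10 kb and 0 inside genes only. Day 0 only regions numbered 5 with the 10 kb limit and 5 inside genes only, where 5 regions were in both day 7 libraries and not at day 0. Among alternatives added after seeing the data, assignment by the nearest gene end alone, which drops regions deep inside Runx1 and Runx2, left 19 regions in all 3 libraries and 8 immobilized-only. Without Runx1 and Runx2, 13 regions were called in all 3 libraries, 4 at day 0 only, 4 were immobilized-only and 4 in both day 7 libraries and not at day 0. The non-immobilized share of regions in either the non-immobilized or the day 0 library but not both then turned from 43.5% to 54.5%. In these comparisons 69 other values kept their direction and lay within the main value's interval, or, for counts, within 1.5 times. These intervals are wide. The day 7 share was 33.3% with windows of 50 bp, 37.5% without Runx1 and Runx2 and 9.52% where absence meant the whole deposited list. The share within 1 kb of a member end, 4.29%, became 12% among the best summits and 10.3% without Runx1 and Runx2. Region counts of single genes per library stayed within 1.5 times in 184 cases and moved further in 50. Part of the 184 could not move. Leaving out Runx1 and Runx2 does not change the counts of other genes, and Ibsp had no region in any setting. The tally is therefore no measure of stability. The excess of immobilized over non-immobilized regions kept its direction under every alternative run, but several alternatives could hardly turn it. The lists as deposited favour the longer immobilized list. Absence from the whole deposited list could lower only the non-immobilized count, as the non-immobilized list was not reduced. Among the best summits the excess rests on 5 regions against 0. No paired analysis was possible because each group has 1 library.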
